A study of Mus musculus with 6 samples.

Results

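Transcripts of 8 genes grouped here as Wnt antagonists were followed from mouse embryonic stem cells (ESCs) to endoderm: Cer1, Dkk1, Sfrp1, Sfrp2, Sfrp5, Frzb, Shisa2 and Notum. The genes were chosen by name, with earlier results of these data known. All 8 were found among the 24054 genes of the expression tables. RNA-seq libraries came from 3 sorted populations of a double knock-in ESC line that was heterozygous for Foxa2-Venus and homozygous for Sox17-Cherry. The d0 cells were undifferentiated ESCs on gelatine at day 0, negative for both reporters. The d3F cells were Foxa2-Venus-positive and Sox17-Cherry-negative at day 3, and the d5FS cells were positive for both reporters at day 5. Both differentiated populations had received 1 ng/ml Wnt3a and 10 ng/ml Activin A, added fresh each day, while d0 cells had not. Each population was measured in 2 replicates, which the study describes as independent biological replicates, and all of them derive from the same ESC line. The labels and the study's methods describe rRNA-depleted total RNA for all libraries, whereas in the study's list of libraries the names for each population carry mRNA in a library and total RNA in another. That list does not give the replicate numbers, so this difference was neither settled nor matched to a replicate here.

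Wnt proteins are lipid-modified signals that bind Frizzled receptors together with the co-receptors Lrp5 and Lrp6 and thereby stabilise β-catenin. Antagonists act at different steps outside the receiving cell. The secreted Frizzled-related proteins (Sfrp1, Sfrp2, Sfrp5 and Frzb) carry a Frizzled-like cysteine-rich domain and bind Wnt proteins, Dkk1 binds Lrp5 and Lrp6, and Notum is an enzyme that removes the lipid from Wnt proteins. Cer1 is a secreted protein best known for binding Nodal, and it also binds BMP and Wnt proteins in some vertebrates. Shisa2 is a different case, because it acts inside the cell, where it holds back Frizzled and FGF receptors in the endoplasmic reticulum. In the mouse embryo, Cer1 and Dkk1 are classical products of the anterior visceral endoderm, and the anterior definitive endoderm also makes Cer1, both tissues being sources of signals that pattern the forebrain side of the embryo.

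For 6 of the 8 genes the sequence around the transcription start, from 250 bases before it to 50 bases after it, was read from RefSeq on GRCm38.p6. No such entry was matched for Sfrp1 and Notum. The sequences below represent the different courses described in the following paragraphs. Cer1 had the highest level per length of all 8 genes in d5FS, Sfrp5 was near zero in d0 and highest in d5FS, and Sfrp2 was lower in d5FS than in d0. Capitals mark matches to AGATAA (the Gata motif) in Sfrp5 and to GGATTA, the reverse complement of TAATCC (the Otx and Gsc motif), in Sfrp2.
Cer1, chr4:82885102-82885401, minus strand: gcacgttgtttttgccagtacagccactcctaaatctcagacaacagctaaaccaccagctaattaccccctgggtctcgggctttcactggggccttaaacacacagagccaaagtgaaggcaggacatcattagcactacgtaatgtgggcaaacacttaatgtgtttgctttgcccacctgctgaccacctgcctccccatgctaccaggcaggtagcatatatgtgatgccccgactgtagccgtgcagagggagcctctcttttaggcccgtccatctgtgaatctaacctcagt
Sfrp5, chr19:42202203-42202502, minus strand: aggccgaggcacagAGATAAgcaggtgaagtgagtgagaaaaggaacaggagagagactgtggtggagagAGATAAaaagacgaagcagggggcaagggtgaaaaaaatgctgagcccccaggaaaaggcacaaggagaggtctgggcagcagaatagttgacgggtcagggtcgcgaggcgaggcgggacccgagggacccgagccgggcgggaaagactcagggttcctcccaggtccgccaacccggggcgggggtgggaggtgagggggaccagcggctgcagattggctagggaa
Sfrp2, chr3:83766071-83766370, plus strand: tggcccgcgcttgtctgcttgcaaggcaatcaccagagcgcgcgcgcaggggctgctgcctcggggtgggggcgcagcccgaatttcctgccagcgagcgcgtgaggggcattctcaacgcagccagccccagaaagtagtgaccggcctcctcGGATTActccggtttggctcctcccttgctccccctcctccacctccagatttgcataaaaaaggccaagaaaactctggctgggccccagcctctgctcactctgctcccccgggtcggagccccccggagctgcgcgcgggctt
Motifs were searched on both strands, and no motif contained another. The AGATAA matches of Sfrp5 began 236 and 180 bases before the start, and 11.2% of 32851 promoters of the same length held this motif. The GGATTA match of Sfrp2 began 96 bases before the start, and 7.06% of all promoters held it in either orientation. The Foxa motif TGTTTAC, the Sox motif ATTGTT, the Tcf and Lef motif CTTTGAT and the T-box motif AGGTGTGA had no match in any of the 6 windows, and 3.65%, 10.7%, 3.73% and 1.28% of all promoters held them. Cer1, Dkk1, Frzb and Shisa2 held none of the 6 motifs in these exact letters. Variants of the motifs that differ in a base were not searched, so other sites for the same factors may lie in the windows. The GC content of the windows was 51.7% for Cer1, 60.7% for Dkk1, 66.0% for Sfrp2, 61.3% for Sfrp5, 64.7% for Frzb and 58.0% for Shisa2, against a median of 52.7% over all promoters. Such letter matches describe the windows only.

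Total expected counts lay between 16457729 and 22768686 per library. In replicate 1, 16970 (d0), 16835 (d3F) and 16770 (d5FS) genes had at least 1 count. In replicate 2 the numbers were higher in every population, at 18642, 18343 and 19846 genes. Whether this difference between replicate numbers follows the kind of library was not tested. Replicates differed by far more than sampling noise in every population (84.1 to 185 chi-square per degree of freedom). Levels are given as CPM, the count scaled to a fixed library size with TMM factors, because in TPM, which also divides by length, short RNAs took a large share of the total, with Rmrp at 18.1 to 23.1% in 5 libraries and Snord22 at 33.0% in d5FS replicate 2. The summed TPM of 7 pluripotency markers was 1530 to 3663 in d0, 255 to 662 in d3F and 93.4 to 194 in d5FS, and that of 7 mesendoderm markers was 2.35 to 10.7, 145 to 242 and 83.7 to 92.8. All 7 definitive endoderm markers exceeded 1 TPM in both libraries of d3F and of d5FS, against 1 of 7 in d0. Their summed TPM overlapped between the populations, with 33.7 to 95.1 in d0, 57.5 to 122 in d3F and 93.4 to 123 in d5FS. Epcam, the highest of them on average, was at 93.14 and 32.37 TPM in d0 and at 69.16 and 22.35 TPM in d5FS. Foxa2 and Sox17 are among these markers, and they also define the sort. The RNA was measured in bulk, so fewer expressing cells and less RNA per cell cannot be told apart.

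In the whole course from d0 to d5FS, 6 genes rose (Cer1, Dkk1, Sfrp1, Sfrp5, Frzb and Shisa2) and 2 fell (Sfrp2 and Notum). A gene was called when edgeR's quasi-likelihood test gave an adjusted p under 0.05 (Benjamini-Hochberg, over 14539 genes) and the absolute log2 fold change exceeded 1. In that comparison 12.4% of all genes tested were called higher and 10.4% lower. The median log2 fold change was 4.33 over the 8 genes and 0.02 over all genes. Because the 8 genes were chosen with earlier results of these data known, such contrasts with all genes only describe the list. From d0 to d3F, 5 genes rose (all that rose over the whole course except Sfrp5), where 2.80% of all genes were called higher and 1.90% lower, and the median was 3.35 against -0.01. No member was called lower by edgeR in this step, although 1 (Notum) was lower at an unadjusted p under 0.05 and was called lower by the DESeq2 Wald test. From d3F to d5FS, Cer1 was called higher, where 1.08% of all genes were called higher and 0.461% lower, and the median was 1.22 against 0.01. Again no member was called lower by edgeR, whereas 1 (Sfrp2) was lower at an unadjusted p under 0.05 and was called lower by the DESeq2 Wald test. The 3 comparisons share their samples and are therefore not independent of one another.

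**Figure D1:**
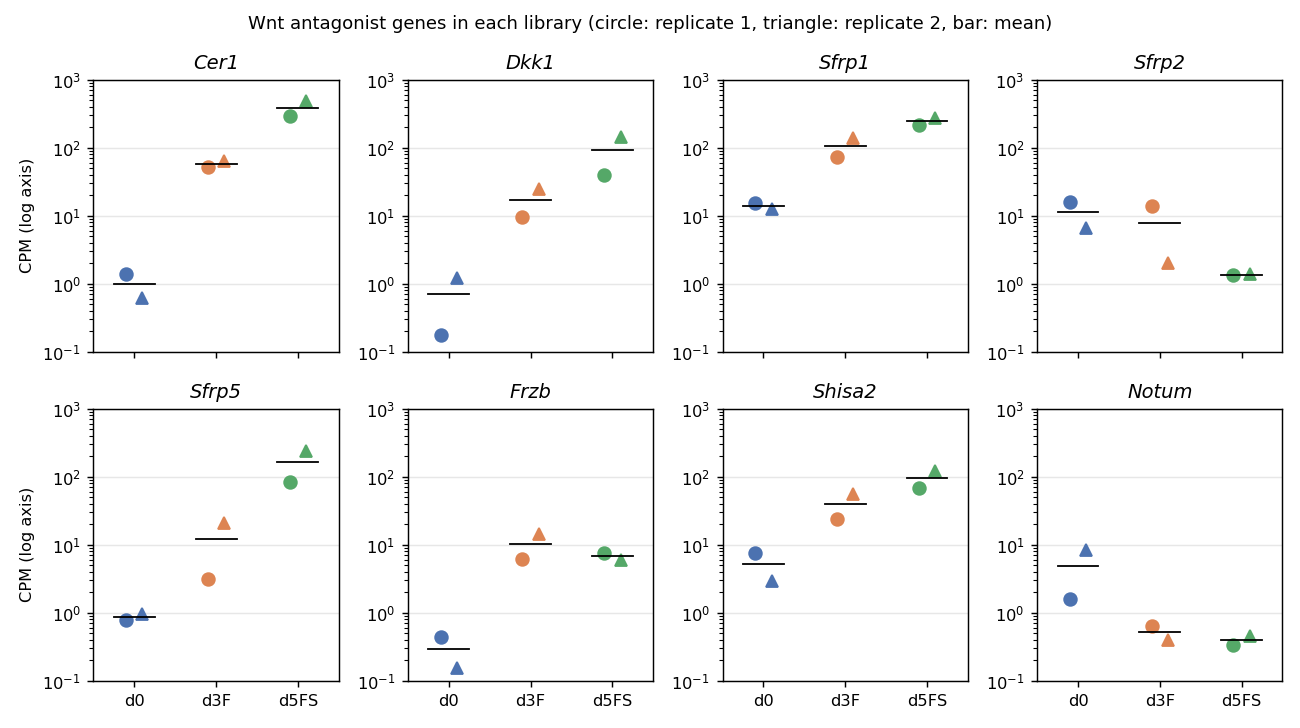
CPM on a log axis of the 8 genes in each library of d0, d3F and d5FS, with circles for replicate 1, triangles for replicate 2 and bars for the mean of 2 libraries. Cer1, Dkk1, Sfrp1, Sfrp5 and Shisa2 are highest in d5FS, Frzb is similar in d3F and d5FS, and Sfrp2 and Notum are highest in a d0 library.

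Cer1, the Nodal and BMP antagonist, lies on chromosome 4 (mm10, 82881751 to 82885148, minus strand) and has a transcript of 2 exons. Its level was 1.40 and 0.615 CPM in the d0 libraries, 51.7 and 63.7 CPM in those of d3F, and 295 and 482 CPM in d5FS. No library of one population overlapped with another, and both d5FS libraries were above both d3F libraries. Cer1 rose by 5.81 (log2) from d0 to d3F (SE 0.50, adjusted p = 0.00269 by edgeR), which is 56.2-fold, and by a further 2.75 from d3F to d5FS (SE 0.42, adjusted p = 0.0242), which is 6.73-fold. Over the whole course the log2 fold change was 8.56 (SE 0.56, adjusted p = 0.000724), or 378-fold, and every one of the 13 alternative settings kept this call. Without d0 replicate 1 the values were 6.54 for d0 to d3F and 9.28 for d0 to d5FS. The step from d3F to d5FS lost its call when any 1 of the 4 libraries concerned was left out, with log2 fold changes of 2.60 and 2.90 without d3F replicates 1 and 2 and of 3.05 and 2.35 without d5FS replicates 1 and 2, and an adjusted p of up to 0.228. The deposited TPM gave the same order of populations, with 0.36 ± 0.339 in d0, 19.6 ± 4.23 in d3F and 90.0 ± 3.08 in d5FS (SD, n = 2).

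Dkk1, the ligand of Lrp5 and Lrp6, lies on chromosome 19 (30545863 to 30549665, minus strand) and has a transcript of 4 exons. Its level was 0.175 and 1.23 CPM in d0 libraries, 9.62 and 25 CPM in those of d3F, and 39.7 and 143 CPM in d5FS. The populations did not overlap, but the 2 replicates differed 7.01-fold in d0, 2.60-fold in d3F and 3.61-fold in d5FS, with replicate 2 the higher in each. Dkk1 rose from d0 to d3F by 4.65 (SE 0.95, adjusted p = 0.0336 by edgeR) and from d0 to d5FS by 7.05 (SE 1.03, adjusted p = 0.00433) on the log2 scale. The change of 2.40 from d3F to d5FS did not pass the test (SE 0.80, adjusted p = 0.168), but passed it with the replicate number as a block (2.28, adjusted p = 0.0125). That change was 3.24 without d3F replicate 2, 3.04 without d5FS replicate 1 and 1.20 without d5FS replicate 2, none of which passed. The lower d0 library, replicate 1, held 4 expected counts. For d0 to d3F the log2 fold change was 3.81 without d0 replicate 1, 6.58 without d0 replicate 2 and 3.81 without d3F replicate 2, and the call was lost without d0 replicate 1 (adjusted p = 0.0534) and without d3F replicate 2 (adjusted p = 0.14) as well as when DESeq2 tested against a log2 change of 1 (adjusted p = 0.129). For d0 to d5FS it ranged from 5.85 without d5FS replicate 2 to 8.98 without d0 replicate 2, with 6.20 without d0 replicate 1 and 7.69 without d5FS replicate 1, and kept its call in all 12 alternatives that tested it.

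Within the family of secreted Frizzled-related proteins the 4 genes took different courses. Sfrp1 lies on chromosome 8 (23411502 to 23449632, plus strand, 3 exons), and its level was 15.4 and 12.8 CPM in d0 libraries, 73.2 and 140 CPM in those of d3F, and 215 and 274 CPM in d5FS. It was already present in ESCs, and its replicates lay close together in d0 and d5FS, within 1.28-fold. Sfrp1 rose from d0 to d3F by 2.91 (SE 0.39, adjusted p = 0.0103 by edgeR) and from d0 to d5FS by 4.11 (SE 0.41, adjusted p = 0.00171), while the later step of 1.20 did not pass the test (SE 0.36, adjusted p = 0.139) but passed the DESeq2 Wald test (adjusted p = 0.045). Both calls held in all 13 alternatives, and the log2 fold change for d0 to d5FS stayed between 3.94 and 4.28.

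Sfrp5, on chromosome 19 (42197971 to 42202252, minus strand, 3 exons), was nearly absent from ESCs. Its level was 0.789 and 0.974 CPM in d0 libraries, 3.17 and 21.0 CPM in those of d3F, and 84.4 and 240 CPM in d5FS. The d3F replicates stood 6.62-fold apart, yet each population lay wholly above the one before it. Between d0 and d5FS, Sfrp5 rose by 7.52 (log2) (SE 1.04, adjusted p = 0.00362 by edgeR), or 183-fold, and the call held in all 13 alternatives. The steps were of like size, 3.76 for d0 to d3F (SE 0.92, adjusted p = 0.0561) and 3.75 for d3F to d5FS (SE 0.85, adjusted p = 0.0739), and neither passed the test. With the replicate number as a block both passed (3.36, adjusted p = 0.0176, and 4.02, adjusted p = 0.0113), and both DESeq2 tests also called them. Library d3F replicate 2 carried much of the first step, which was 1.85 without it (adjusted p = 0.305) and 4.57 without d3F replicate 1 (adjusted p = 0.0105). The second step was 5.67 without d3F replicate 2 (adjusted p = 0.0296), 2.94 without d3F replicate 1 (adjusted p = 0.229) and 2.81 without d5FS replicate 2 (adjusted p = 0.231), and it also passed the test without either d0 library (adjusted p = 0.0485 and 0.0491). Without d5FS replicate 2 the value for the whole course was 6.59.

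Frzb, also known as Sfrp3, lies on chromosome 2 (80411970 to 80447625, minus strand, 6 exons). Its level was 0.439 and 0.154 CPM in d0 libraries, 6.09 and 14.2 CPM in those of d3F, and 7.60 and 6.08 CPM in d5FS. Here d3F and d5FS overlapped, and both lay above d0. Frzb rose from d0 to d3F by 5.04 (SE 0.69, adjusted p = 0.011 by edgeR) and was 4.47 higher in d5FS than in d0 (SE 0.68, adjusted p = 0.00467), while d5FS against d3F gave -0.57 (SE 0.54, adjusted p = 0.629), a direction that turned without d3F replicate 2 (0.16). The library d0 replicate 2 held only 3 expected counts of Frzb, so within replicate 2 the ratio of d3F to d0 was 92.7, with an exact 95% interval from 31.4 to 452 that covers counting error only. The log2 fold change for d0 to d3F was 5.99 without d0 replicate 1 and 4.32 without d3F replicate 2, and that for d0 to d5FS was 5.41 without d0 replicate 1. All of these kept their calls.

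Sfrp2, on chromosome 3 (83766321 to 83774316, plus strand, 3 exons), ran the other way. Its level was 16.2 and 6.61 CPM in d0 libraries, 13.8 and 2.02 CPM in those of d3F, and 1.36 and 1.38 CPM in d5FS. The d3F libraries stood 6.85-fold apart and spanned much of the range between d0 and d5FS, and both d5FS libraries were below every other library. Between d0 and d5FS, Sfrp2 fell by 3.06 (log2) (SE 0.88, adjusted p = 0.0387 by edgeR), an 8.32-fold decrease. Neither step passed the test by itself, with -0.52 for d0 to d3F (SE 0.79, adjusted p = 0.78) and -2.53 for d3F to d5FS (SE 0.86, adjusted p = 0.178). The call for the whole course was lost without d0 replicate 1 (log2 fold change -2.28, adjusted p = 0.102), without d5FS replicate 1 (-3.05, adjusted p = 0.174) and without d5FS replicate 2 (-3.05, adjusted p = 0.144), and also when DESeq2 tested against a log2 change of 1 (adjusted p = 0.0632). For d0 to d3F the value was 0.27 without d0 replicate 1, 0.29 without d3F replicate 2 and -2.49 without d3F replicate 1, so its direction depended on the library. For d3F to d5FS it was -0.57 without d3F replicate 1 (adjusted p = 0.88) and -3.34 without d3F replicate 2 (adjusted p = 0.0635). In d0 and d3F, replicate 1 was the higher for Sfrp2. The summed TPM of 7 neural progenitor markers was also higher in replicate 1 (23 against 1.39 TPM in d0 and 29.0 against 13.2 TPM in d3F). In d5FS, where Sfrp2 was at 1.36 and 1.38 CPM, replicate 1 was again the higher for that sum (9.13 against 2.61 TPM). Nes made up most of that sum, at 22.1 and 0.93 TPM in d0, 25.3 and 10.4 TPM in the d3F libraries, and 8.32 and 2.43 TPM in d5FS, while Sox1, a defining neural marker, stayed at or below 0.19 TPM. In d0 and d3F, TPM put replicate 1 further above replicate 2 than CPM did. Sfrp2 itself was at 5.91 and 1.13 TPM in d0 and at 5.18 and 0.45 TPM in d3F, wider apart than its CPM. The part of neural progenitors in the Sfrp2 level was not tested. Antisense gene Gm26771 overlaps 464 bases of the Sfrp2 gene span, introns included, and overlap of exons was not measured. Because the counting is not stated to use strand, reads from any shared exon bases cannot be told apart.

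Shisa2, the intracellular inhibitor of Frizzled maturation, lies on chromosome 14 (59625308 to 59631660, plus strand) and has 2 exons. Its level was 7.54 and 2.92 CPM in d0 libraries, 24.1 and 56.1 CPM in those of d3F, and 68.5 and 122 CPM in d5FS. The populations did not overlap, and the d3F libraries lay between the others. Shisa2 rose from d0 to d3F by 2.93 (SE 0.59, adjusted p = 0.0324 by edgeR) and from d0 to d5FS by 4.18 (SE 0.62, adjusted p = 0.00441), and the difference between d5FS and d3F was 1.25 (SE 0.55, adjusted p = 0.28). The earlier call was lost without d0 replicate 2 (2.42, adjusted p = 0.0985), without d3F replicate 2 (2.21, adjusted p = 0.173) and without either d5FS library (2.94 in both, adjusted p = 0.0507 and 0.055), and with only d0 and d3F in the fit (adjusted p = 0.051). Without d3F replicate 2 the difference between d5FS and d3F was 1.97, which did not pass. Without d0 replicate 1 the early change was 3.77 and the whole-course change 5.01, and the whole-course call held in all 13 alternatives.

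Notum, the Wnt-inactivating enzyme, lies on chromosome 11 (120653788 to 120661175, minus strand) and has the most exons of the group, 12. Its level was 1.62 and 8.30 CPM in d0 libraries, 0.650 and 0.404 CPM in those of d3F, and 0.340 and 0.459 CPM in d5FS. Both differentiated populations were low and overlapped each other, and the d0 libraries, although 5.12-fold apart, were both higher. Between d0 and d5FS, Notum fell by 3.61 (log2) (SE 0.87, adjusted p = 0.022 by edgeR), a 12.2-fold decrease, and the difference between d3F and d0 was -3.21 (SE 0.83, adjusted p = 0.0663). Much of this rested on d0 replicate 2, which held 162 expected counts against 37 in d0 replicate 1. Without d0 replicate 2 the whole-course change was -2.00 and lost its call, and so it did without d5FS replicates 1 and 2, at -3.42 (adjusted p = 0.133) and -3.83 (adjusted p = 0.0929), whereas without d0 replicate 1 it was -4.37 (adjusted p = 0.0042). For d0 to d3F the change was -3.95 without d0 replicate 1, which passed the test (adjusted p = 0.0112), and -1.59 without d0 replicate 2 (adjusted p = 0.356). The antisense genes Myadml2os and Notumos overlap 3274 and 2019 bases of the Notum gene span, introns included. Overlap of exons was not measured. Reads from any shared exon bases cannot be told apart from those of Notum without strand.

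**Figure D2:**
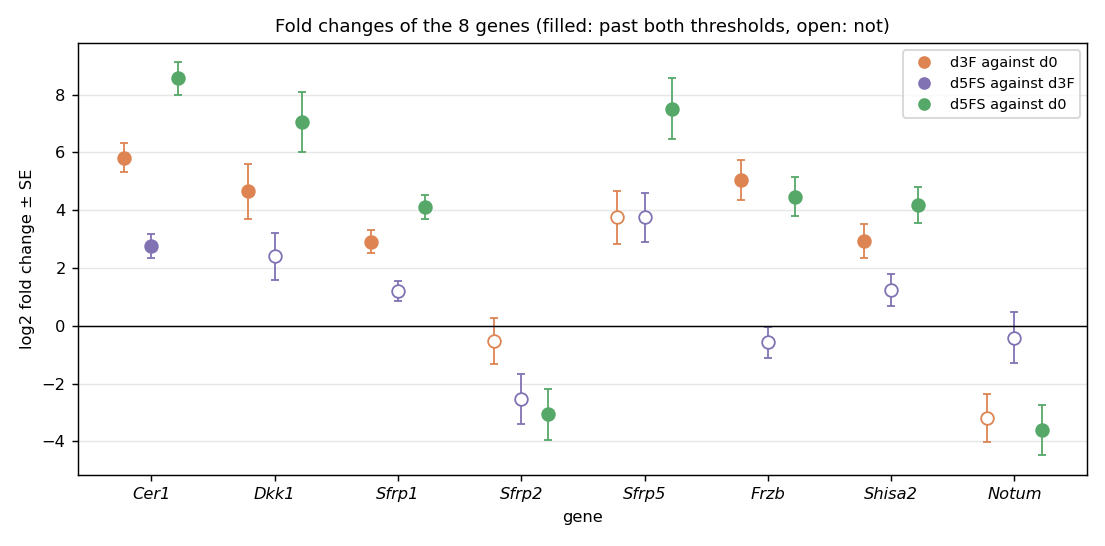
Log2 fold change with its standard error for the 8 genes in the 3 comparisons (d3F against d0, d5FS against d3F and d5FS against d0), with filled points where the gene was called and open points where it was not. All 8 points of d5FS against d0 are filled, 6 above zero and 2 below, whereas for d5FS against d3F only Cer1 is filled.

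Levels of different genes were compared per length, as CPM per kilobase of effective length. The sum over the 8 genes was 17.9 and 13.9 in the d0 libraries, 76.3 and 125 in d3F, and 339 and 632 in d5FS. The pool was therefore larger in each later population without overlap, with means of 15.9 ± 2.81 in d0 and 485 ± 207 in d5FS (SD, n = 2). On the TPM scale the corresponding sums were 7.97 ± 5.19, 50.8 ± 0.636 and 172 ± 22.5 TPM. The make-up of the pool changed along with its size. In d0, Sfrp2 and Notum together held 55.8 and 59.1% of the summed CPM per kilobase, with Sfrp2 leading in replicate 1 at 50.7% and Notum leading in replicate 2 at 32.8%. Their joint share was 10.6 and 1.08% in d3F and 0.278 and 0.160% in d5FS. Cer1 led in all 4 differentiated libraries, with 44.1 and 33.0% in d3F and 56.5 and 49.2% in d5FS, against 5.13 and 2.86% in d0. Sfrp1 kept a share between 10.4 and 26.8% in all 6 libraries, and the share of Sfrp5 was 14.6 and 22.3% in d5FS and at most 9.86% elsewhere. The 4 Frizzled-related genes together made up 75.0 and 52.9% of the pool in d0, 38.5 and 41.7% of it in d3F, and 30.9 and 33.1% in d5FS. Both d5FS libraries placed Cer1 highest per length and Frzb, Sfrp2 and Notum lowest, in that order, while Sfrp1, Sfrp5, Shisa2 and Dkk1 changed places in between.

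**Figure D3:**
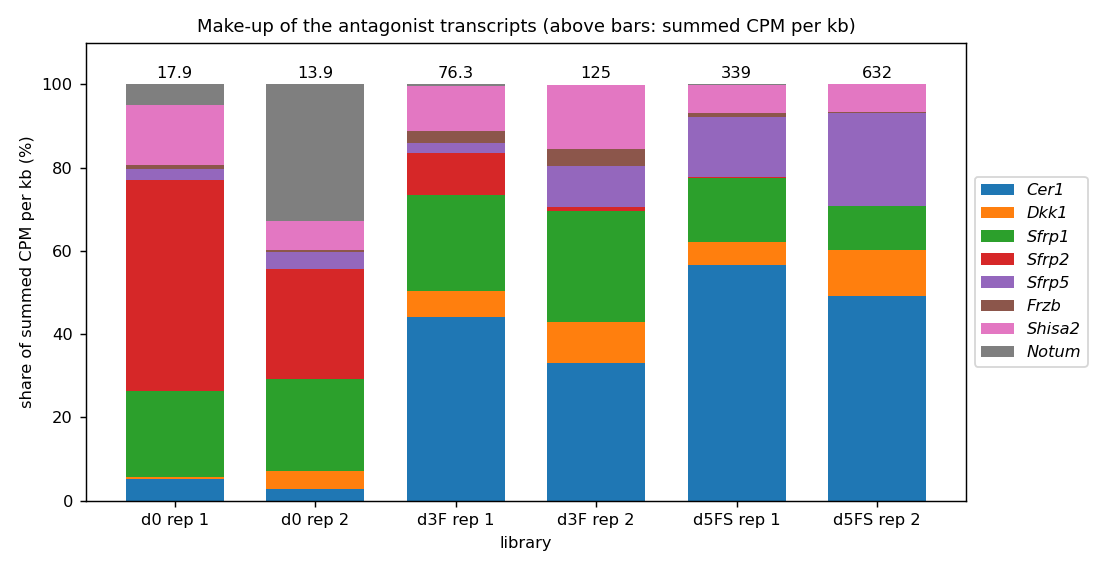
Share of each gene in the summed CPM per kilobase of the 8 genes, in percent, as a stacked bar for each library, with the sum printed above the bar. Sfrp2 and Notum take over 55% in both d0 libraries and under 1% in both d5FS libraries, where Cer1 takes 49.2 to 56.5%.

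The genes with the most similar profiles were found by the root mean square (RMS) difference of mean-centred log2 CPM over the 6 libraries, among 12897 genes. Such likeness is a description over 6 libraries of 1 ESC line. For Cer1 the nearest were Rgs8, a regulator of G-protein signalling (RMS difference 0.63), and Lhx1, a LIM homeobox factor of the organizer (0.89). The median over all genes was 3.58 for Cer1. It was 3.06 for Dkk1, 1.77 for Sfrp1, 1.52 for Sfrp2, 3.09 for Sfrp5, 2.19 for Frzb, 1.90 for Shisa2 and 1.55 for Notum. RMS differences of different members are therefore to be read against different medians. Dkk1 was nearest to Gata4, an endoderm transcription factor (0.57), and to Col1a2, a collagen chain (0.62). Sfrp1 was nearest to the homeobox gene Alx1 (0.18), and Shisa2 to Krt19, a simple-epithelium keratin (0.26), and to Fzd8, a Frizzled receptor (0.28). The members Sfrp1 and Shisa2 also lay close to each other, with an RMS difference of 0.35. Sfrp5 was nearest to Hkdc1, a hexokinase-like gene (0.37), and to Gckr, the glucokinase regulator (0.50), both of which also had their highest levels in d5FS. Frzb was nearest to Eomes, a T-box factor of mesendoderm (0.32), with 10.4 and 5.02 CPM in d0 libraries, 99.2 and 151 CPM in those of d3F, and 118 and 118 CPM in d5FS. Sfrp2 was nearest to Trp73, a relative of p53 (0.26), and Notum to Nanos3, a germ-cell gene (0.17), and to Alpl, the alkaline phosphatase of ESCs (0.25). Nanos3 and Alpl shared the replicate difference of Notum in d0, with 1.23 and 6.46 CPM for Nanos3 and 20.4 and 97.6 CPM for Alpl. Other second neighbours were Mvb12b for Sfrp1 (0.22), Slc45a1 for Sfrp2 (0.34) and Rgs5 for Frzb (0.33).

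For the lists that follow, the shares of all genes tested serve as a background. From d0 to d3F, 2.8% of all genes were called higher and 1.9% lower, and from d3F to d5FS 1.08% and 0.461%. Among 17 further Wnt antagonists and antagonist receptors, 13 were tested, and most of them did not pass the test. From d0 to d3F, 2 rose, namely Igfbp4, a secreted binding protein that can block Wnt receptors (3.10, SE 0.61, adjusted p = 0.03 by edgeR), and Trabd2b, a protease that inactivates Wnt proteins (3.07, SE 0.64, adjusted p = 0.0353). From d3F to d5FS, 1 rose, Dkkl1, a relative of the Dkk family (3.80, SE 0.55, adjusted p = 0.0218), with 0.771 and 1.57 CPM in d3F and 19.5 and 12.9 CPM in d5FS. Over the whole course 3 of the 13 rose and 2 fell, where 12.4% of all genes tested were called higher and 10.4% lower. Dkkl1 (4.26, adjusted p = 0.00334), Trabd2b (4.15, adjusted p = 0.00518) and Rnf43, a ubiquitin ligase that removes Frizzled receptors (1.85, adjusted p = 0.0383), were higher in d5FS. The Frizzled-related gene Sfrp4 (-2.83, adjusted p = 0.0305) and Kremen2, a Dkk1 receptor (-2.56, adjusted p = 0.0305), were lower, both at low counts, with 0.113 and 0.172 CPM of Sfrp4 in d5FS. The median log2 fold change of the list was 0.60, 0.07 and 0.75 in the 3 comparisons, in the order d3F against d0, d5FS against d3F and d5FS against d0.

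Of 21 Wnt ligands and genes of ligand release, 17 were tested. From d0 to d3F, 4 rose: Wnt2 (4.87, SE 1.05, adjusted p = 0.0397 by edgeR), Wnt11 (4.53, adjusted p = 0.00414), Wnt5a (2.49, adjusted p = 0.0348) and Wls, the carrier that takes Wnt proteins to the cell surface (2.42, adjusted p = 0.0322). Wnt2 was at 0.877 and 0.103 CPM in d0, the lower from 2 expected counts. Its level was 4.34 and 25.5 CPM in d3F and 0.964 and 1.09 CPM in d5FS. In the later step 2 fell, Wnt8a by 6.99 (adjusted p = 0.0174) and Wnt5b by 2.93 (adjusted p = 0.0376). Wnt8a is a ligand of the primitive streak, and its level was 28.6 and 9.20 CPM in d3F against 0.0567 and 0.229 CPM in d5FS, the lower from 1 and 4 expected counts. Wnt11 reached 70.3 and 54.8 CPM in d5FS, from 0.526 and 1.03 CPM in d0 (6.34, adjusted p = 0.000916). Against d0, 3 genes of the list were higher in d5FS (Wnt11, Wnt5a and Wls) and 2 lower, where 12.4% of all genes tested were called higher and 10.4% lower. The medians of the list were 0.62, -0.19 and 0.37 in the order given above.

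Among 22 receptors and agonists, 20 were tested, and 7 were higher and 3 lower in d5FS than in d0. Of all genes tested, 12.4% were called higher and 10.4% lower in that comparison. Lgr5, a receptor for R-spondins (5.21, adjusted p = 0.00317 by edgeR), and the Frizzled receptors Fzd8 (4.21, adjusted p = 0.00296) and Fzd5 (3.81, adjusted p = 0.00129) were higher, and Fzd9 was lower (-3.39, adjusted p = 0.00775). Fzd5 stood at 486 and 574 CPM in d5FS, against 67.2 and 79.4 CPM in d3F and 33.0 and 42.7 CPM in d0. In the early step Lgr5 (4.37, adjusted p = 0.0144), Fzd8 (3.24, adjusted p = 0.0151) and Fzd2 (1.70, adjusted p = 0.0254) rose. In the later step Fzd5 rose (2.85, adjusted p = 0.013) and Fzd10 fell by 2.86 (adjusted p = 0.016), from 27.7 and 25.6 CPM to 3.86 and 3.50 CPM.

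Of 15 feedback and target genes of Wnt signalling, 14 were tested, and 1 was higher and 6 lower in d5FS than in d0, with a list median of -1.70. The target genes Cdx4 (-5.22, adjusted p = 0.0159 by edgeR), Cdx1 (-4.86, adjusted p = 0.0272) and Ccnd1, the cyclin D1 gene (-3.55, adjusted p = 0.00158), fell. Over both d5FS libraries Cdx4 had 1 expected count, and the ratio of d0 to d5FS from the summed counts was 46.4, with an exact 95% counting interval from 8 to 1866. The decrease of Cdx1 was set against 0.921 and 16 CPM in d0 libraries, a replicate difference in the same direction as that of Notum. Tbx6, a T-box factor of paraxial mesoderm, was the gene called higher (3.10, adjusted p = 0.0264), at no more than 1.42 CPM. The mesendoderm gene T (Brachyury) rose from d0 to d3F by 3.25 (adjusted p = 0.0487) and fell by 4.34 in the later step (adjusted p = 0.0437), in which Ccnd1 fell by 2.97 (adjusted p = 0.013). Axin2 and Lef1, common readouts of β-catenin activity, and Cdx2 were looked up after the other values were seen. They were the remaining genes called lower in d5FS than in d0. The log2 fold changes were -2.02 for Axin2 (SE 0.41, adjusted p = 0.0121) and -1.75 for Lef1 (SE 0.54, adjusted p = 0.0499). For Cdx2 the value was -2.96 (SE 0.68, adjusted p = 0.019). Among the 7 genes of the list not called in this comparison were Sp5 (-1.23, adjusted p = 0.202) and Nkd2 (-1.65, adjusted p = 0.0607). Tcf7 (-0.39, adjusted p = 0.57) and Nkd1 (0.04, adjusted p = 0.966) were not called either.

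All 17 genes of the list of anterior endoderm and organizer factors were tested, 12 of which rose from d0 to d3F and 14 of which were higher in d5FS than in d0, with medians of 4.02 and 3.93. From d0 to d3F the largest increases in the list were those of Foxa2 (8.42), Lhx1 (7.01), Gsc, a homeobox factor of the organizer (6.43), and Gata6, an endoderm factor (5.41), with adjusted p from 0.00178 to 0.00269 by edgeR. In d5FS against d0 they were Foxa2 (8.11), Lhx1 (7.80), Sox17 (6.94) and Gata4 (6.83). Foxa2 and Sox17 separate the populations by the sort itself. From d3F to d5FS, Sox17 rose by 3.03 (adjusted p = 0.0453). Mixl1, a mesendoderm homeobox gene, fell by 2.62 (adjusted p = 0.0368), and Chrd, which encodes the BMP antagonist chordin, fell by 2.54 (adjusted p = 0.0405). The list median in that step was 0.31.

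**Figure D4:**
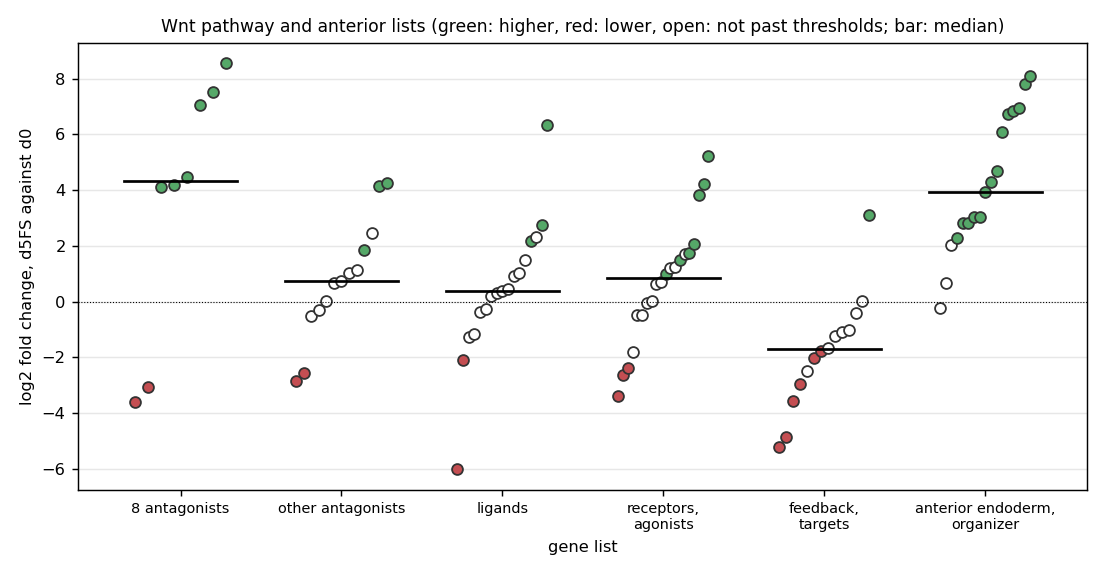
Log2 fold change of d5FS against d0 for each tested gene of the 8 antagonists and of 5 further lists, with green points for genes called higher, red for genes called lower, open points for genes not called and a bar at the list median. The medians are 4.33 for the 8 antagonists and 3.93 for anterior endoderm and organizer factors, against 0.75, 0.37 and 0.84 for other antagonists, ligands and receptors and -1.70 for feedback and target genes.

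Markers of other cell types were also measured in the populations with the highest antagonist levels. They are given in TPM, which the share of short RNAs affects, so they compare only roughly between libraries. Cer1, for example, was at 87.86 and 92.21 TPM in the d5FS libraries, against 295 and 482 CPM. Of 9 visceral endoderm markers, 8 were listed in the tables, and 6 exceeded 1 TPM in both d5FS libraries against 1 in d0 and 1 in d3F. Their summed level was 37.0 to 37.6 TPM in d5FS, 11.0 to 19.7 TPM in d3F and 30.3 to 39.1 TPM in d0, where Rhox5, which ESCs also express, supplied most of it with 28.1 and 38.4 TPM. Ttr was at 4.82 and 5.82 TPM, Hnf4a at 4.30 and 4.33 TPM and Afp at 1.49 and 3.96 TPM in the d5FS libraries, and none of these 3 exceeded 0.26 TPM in d0 or d3F. Amn, another marker of the list, was at 0.67 and 1.00 TPM in d5FS against 0.70 and 0.52 TPM in d0. Cubn was at 0.36 and 0.25 TPM in d5FS and at no more than 0.06 TPM in d0 and d3F. Since Cer1 and Dkk1 are made by anterior visceral endoderm as well as by other endoderm, these values stand beside their increase, and the part of visceral endoderm in it was not tested. The 7 parietal endoderm markers summed to 114 to 186 TPM in d5FS, 76.0 to 96.0 TPM in d3F and 28 to 71.2 TPM in d0, led by Sparc and Lamb1. Of the others, Col4a1 was at 20.1 and 9.72 TPM in d5FS against 3.65 and 1.49 TPM in d0. Lama1 was at 1.15 and 0.96 TPM in d5FS against 1.05 and 1.25 TPM in d0, and Sox7 did not exceed 0.27 TPM in any library. Fibroblast markers summed to 12.2 to 23.8 TPM in d5FS, 5.80 to 7.35 TPM in d3F and 1.35 to 2.55 TPM in d0, and Col1a2 was the highest of them in d5FS with 10.2 and 9.37 TPM. Lum had no counts in either d5FS library, and Dcn was at no more than 0.13 TPM there. The 8 markers of paraxial and cardiac mesoderm summed to 0.47 to 0.55 TPM in d0, 5.35 to 8.12 TPM in d3F and 1.15 to 2.77 TPM in d5FS, and their part in the antagonist levels was not tested.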

How the data were processed

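The 6 RNA-seq libraries comprise 2 replicates of each of the 3 populations (d0, d3F, d5FS), grouped from the labels. Per the study's methods, the authors aligned reads to mm10 with STAR and quantified genes with RSEM, whose versions and annotation release are not given in the sources used here. The authors deposited per gene expected counts, which are estimated fragment counts without normalization, and TPM, which are scaled for effective length to a fixed total. Deposited effective lengths served to compare genes with each other, and the deposited FPKM were not used. Annotation was taken from GENCODE M21.

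Expected counts were rounded to whole numbers and fitted with edgeR 4.0.16 in R 4.3.3 (filterByExpr, TMM, glmQLFit, glmQLFTest, prior count 0.125), with a mean per population over all 6 libraries and 3 residual degrees of freedom. SE was derived from the fold change and the F statistic (its size over the root of F). The thresholds were 0.05 for the adjusted p and 1 for the size of the log2 fold change. All 8 genes passed the filter on low counts, and 3 counts equal 0.122 to 0.172 CPM. Fits were tested on simulated data. Alternatives were DESeq2 1.42.0, other filters and size factors, a block for the replicate number and leaving out each library. The 8 genes, the gene lists and the rules were chosen with earlier results of these data known. Named were all 8 genes, every called gene of the other antagonists, up to 4 called genes with the largest changes in each other list, and the 2 genes nearest to each member with a mean of at least 1 CPM. Intervals cover counting error only. Because the libraries come from 1 ESC line, p-values measure the spread between these samples.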

Additional observations from a re-analysis of the deposited data

How the results depend on the processing

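Of 302 alternative values of the 24 fold changes of the 8 genes, 260 stayed on the same side of the thresholds, 23 passed them newly, 19 no longer did and 0 reversed a call. Genes called from d0 to d3F (683) numbered 1933 without a filter, 357 with at least 10 counts in every library, 1486 by the DESeq2 Wald test, 385 by DESeq2 against a log2 fold change of 1, 430 with only the groups compared, and 97 to 977 without each library. For d3F to d5FS (224) they were 1423, 144, 1059, 189 and 529 in that order, and 0 to 496 without each library. The 0 arose without d3F replicate 1, where 1206 genes had an unadjusted p under 0.05 in edgeR. For d0 to d5FS (3313) there were 1004 by DESeq2 against a log2 fold change of 1, and 1047 to 3037 without each library.

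Of the 8 genes, the 5 called from d0 to d3F became 3 of 5 tested with at least 10 counts in every library, 4 with only the groups compared and 3 to 6 without each library. The 1 called from d3F to d5FS became 6 without a filter, 4 by the DESeq2 Wald test, 2 by DESeq2 against a log2 fold change of 1, 2 with only the groups compared and 0 to 2 without each library. The 8 called from d0 to d5FS became 5 of 5 tested with at least 10 counts in every library, 7 by DESeq2 against a log2 fold change of 1 and 6 to 8 without each library. A library left alone in its group was assumed to vary like the other groups.

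With the replicate block, the calls numbered 1320 for d0 to d3F, 918 for d3F to d5FS and 4296 for the whole course. Within the 8 genes the block added Sfrp5 for d0 to d3F (3.36, adjusted p = 0.0176) and Dkk1 (2.28, adjusted p = 0.0125) and Sfrp5 (4.02, adjusted p = 0.0113) for d3F to d5FS, giving 3 there, and it changed no other call. Differences between replicates 1 and 2 correlated across 14539 genes, with r of 0.314, 0.324 and 0.278 between the 3 pairs of populations, and the labels do not say what a shared number stands for. With library totals in place of TMM, the Sfrp2 level in d5FS was 1.41 in place of 1.37 CPM, and TMM-rescaled summed TPM in d3F were 47.4 and 52.6. At these depths Frzb in d0, with 10 and 3 expected counts, and Notum in d3F and d5FS, with 6 to 16, limit the size of their changes.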
